A study of Mus musculus with 26 samples.

Results

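The regions described here are mid-length chromatin domains of mouse embryonic stem cells that hold a single protein-coding gene. They were selected from a list of domain boundaries. A domain was defined as the stretch from the end of one boundary to the start of the next on the same chromosome, and it was kept where it measured 0.225 to 1.475 Mb and held the midpoint of exactly 1 protein-coding gene. This rule chose 582 of the 3495 domains, or 20.2% of the 2875 domains of that length. The gene whose midpoint lies in such a domain is called its lone gene below. Domain length and the number of genes were the values used for the choice, so they are given only as a description.

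The boundaries come from Micro-C, an assay that cuts chromatin with micrococcal nuclease and ligates fragments that touch in the nucleus. Its 26 libraries were made from G1 cells of a C57BL/6J mouse stem cell line, derived from Bruce-4 cells, in which the cohesin subunit RAD21 carries a degradable tag. Stem cells received 500 nM dTAG to degrade RAD21 (6 libraries), 20 µM A485, which blocks the p300 and CBP acetyltransferases (6 libraries), or 0.05% v/v DMSO as vehicle (6 libraries), and epiblast-like cells received dTAG (4 libraries) or DMSO (4 libraries). The single boundary list used here was made from the DMSO-treated stem cell libraries together. Every group carries the tag on RAD21, the DMSO cells included, and 1 engineered line stands for the cell type. The list has no replicates and gives no score, its contact depth is unknown, and no expression values came with it, so the cell type was not checked against marker genes.

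Topologically associating domains are stretches of chromosome whose parts touch each other more often than they touch sequence beyond the next boundary. In mammals most of them form as cohesin extrudes chromatin loops and is halted at sites bound by CTCF, so that enhancers act mainly on promoters of the same domain. Genes that steer development often stand in wide gene-poor stretches filled with their enhancers, and many genes of the nervous system have introns so long that the gene itself fills much of a domain.

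Developmental transcription factors formed the largest of the gene groups counted among the lone genes. The promoters of 6 of them are shown, with starts near a boundary or near the centre of the domain. Each window runs from 250 bases before to 50 bases after the gene's start, from RefSeq's GRCm38.p6 table (mm10 coordinates), 5′ to 3′ on the gene's strand, and the capitals mark CG dinucleotides. Among the 32 lone transcription factors considered, all with a known start, Nkx6-1, Sox6 and Erg had the start nearest to a boundary, at 10.3, 11.3 and 13.4 kb.
Nkx6-1, chr5:101664662-101664961, minus strand: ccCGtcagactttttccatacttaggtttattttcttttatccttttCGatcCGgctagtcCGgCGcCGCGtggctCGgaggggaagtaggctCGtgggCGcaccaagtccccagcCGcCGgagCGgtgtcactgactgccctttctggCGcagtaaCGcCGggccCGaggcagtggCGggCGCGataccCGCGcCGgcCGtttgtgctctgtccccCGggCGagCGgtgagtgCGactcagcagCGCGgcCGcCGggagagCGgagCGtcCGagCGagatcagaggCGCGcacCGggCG
Sox6, chr7:116038695-116038994, minus strand: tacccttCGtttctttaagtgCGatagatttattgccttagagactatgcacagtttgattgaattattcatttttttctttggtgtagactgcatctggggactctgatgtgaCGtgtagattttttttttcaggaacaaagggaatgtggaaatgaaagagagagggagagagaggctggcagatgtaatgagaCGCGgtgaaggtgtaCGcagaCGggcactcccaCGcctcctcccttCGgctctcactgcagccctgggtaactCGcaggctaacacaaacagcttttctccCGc
Erg, chr16:95586544-95586843, minus strand: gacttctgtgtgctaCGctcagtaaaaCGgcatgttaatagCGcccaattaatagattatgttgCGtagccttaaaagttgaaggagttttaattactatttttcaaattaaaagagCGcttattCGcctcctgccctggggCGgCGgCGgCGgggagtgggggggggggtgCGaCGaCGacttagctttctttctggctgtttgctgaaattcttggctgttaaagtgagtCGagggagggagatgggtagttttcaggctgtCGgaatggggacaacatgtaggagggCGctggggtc
Pax2, Dmrta1 and Tox3 had the start nearest to the centre of the domain, at 153, 138 and 427 kb from a boundary.
Pax2, chr19:44746351-44746650, plus strand: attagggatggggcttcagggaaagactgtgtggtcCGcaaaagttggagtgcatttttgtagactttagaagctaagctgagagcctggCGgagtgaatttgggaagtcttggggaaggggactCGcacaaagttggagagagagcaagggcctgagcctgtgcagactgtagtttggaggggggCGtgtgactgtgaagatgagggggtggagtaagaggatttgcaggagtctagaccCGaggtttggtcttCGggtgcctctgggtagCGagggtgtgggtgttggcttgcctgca
Dmrta1, chr4:89687948-89688247, plus strand: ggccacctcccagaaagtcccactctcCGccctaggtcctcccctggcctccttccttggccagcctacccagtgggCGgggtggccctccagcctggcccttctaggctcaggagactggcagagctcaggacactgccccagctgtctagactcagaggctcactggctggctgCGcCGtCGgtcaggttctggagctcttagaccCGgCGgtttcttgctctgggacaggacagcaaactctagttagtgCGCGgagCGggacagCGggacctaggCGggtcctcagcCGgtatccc
Tox3, chr8:90348203-90348502, minus strand: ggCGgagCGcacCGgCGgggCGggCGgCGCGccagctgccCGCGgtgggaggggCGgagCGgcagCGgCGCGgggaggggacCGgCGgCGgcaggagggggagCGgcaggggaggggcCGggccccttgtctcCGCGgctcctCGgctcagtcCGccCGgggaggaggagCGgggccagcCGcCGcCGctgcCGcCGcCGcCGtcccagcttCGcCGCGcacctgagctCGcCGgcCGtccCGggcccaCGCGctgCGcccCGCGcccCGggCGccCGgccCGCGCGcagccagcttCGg
These windows held from 7 CG dinucleotides (Pax2) to 52 (Tox3), with 40 in Nkx6-1, 16 in Erg, 13 in Dmrta1 and 11 in Sox6, against a median of 14 over the windows of 17274 genes (quartiles 4 and 24). Neither the core consensus of the CTCF motif nor TATAAA, both searched on either strand, was found in any of the 6, and 0.550% and 13.4% of all windows held them. A missing match says only that these letters are not in this window. Where the table gives several starts of a gene, the outermost one was used.

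The lone genes were long. Their median length was 157 kb (quartiles 52.5 and 313 kb), against 30.3 kb for genes of mid-length domains with 2 to 11 genes, 10.7 kb for genes of those with 12 or more, and 17.4 kb for all protein-coding genes. Of the 582, 371 were longer than 100 kb, a share of 63.7% (95% Wilson interval 59.8 to 67.5), against 11.3% of all 21521 genes. Intervals of this kind cover counting error only. Length is not independent of the rule, because a long gene leaves less room for the midpoint of another. Genes longer than 500 kb numbered 64, so that 28.2% of the 227 such genes of the genome (22.7 to 34.4) were lone genes, while 2.7% of all protein-coding genes were. Short genes were also present, with 72 of up to 10 kb (12.4%), against 35.7% of all genes.

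Domain length and gene length varied almost separately among the 582. Domains had a median of 475 kb with quartiles of 325 and 725 kb, close to those with 2 to 11 genes (475 kb, 325 and 675 kb), whereas those with 12 or more had a median of 725 kb. Spearman's rank correlation between domain length and lone gene length was 0.125 across the 582 domains, which share 1 list and are not independent. The lone gene covered a median of 33.4% of its domain. It covered less than 10% in 150 domains, 10 to 50% in 230, 50 to 90% in 146 and more in 56, of which 34 were covered from edge to edge. The set thus ran from tiny genes that covered little of their domain to genes larger than the domain.

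**Figure D1:**
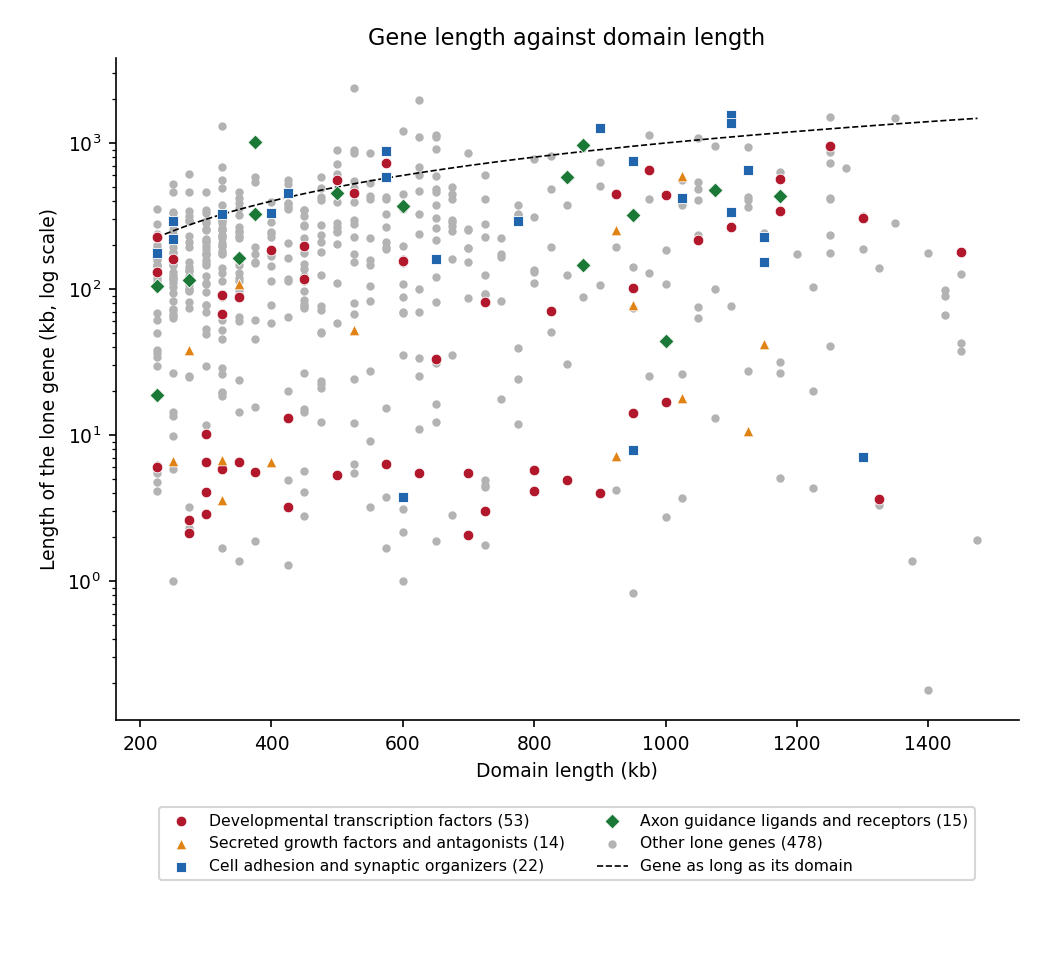
Length of the lone gene (kb, log scale) against the length of its domain (kb) for the 582 domains, 1 point each, with 4 groups of genes marked. Developmental transcription factors (red) and growth factors (orange) reach down to genes of a few kb in domains of all lengths, and most adhesion (blue) and axon guidance genes (green) lie nearer to the dashed line, where gene and domain are equally long.

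The extremes show both ends. Dmd (gene ID 13405), which encodes the muscle protein dystrophin, was the longest lone gene at 2390 kb, and its midpoint fell in a domain of only 525 kb, chrX:83900001-84425000. It reached 1085 kb beyond one edge and 780 kb beyond the other. Dlg2, a postsynaptic scaffold gene of 1973 kb, likewise covered a 625 kb domain on chromosome 7. Pcdh15, a protocadherin gene of hearing and vision, was 1554 kb long and covered its 1100 kb domain, and Dpp10, which encodes a potassium channel partner, was 1514 kb long in a domain of 1250 kb. The other 4 of the 8 longest were Magi2, a synaptic scaffold gene, Il1rapl1, a synaptic adhesion gene, Pde4d, which encodes a cyclic AMP phosphodiesterase, and the contactin gene Cntn5, at 1485, 1375, 1302 and 1271 kb.

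At the short end, Tnp1, which encodes a nuclear protein that replaces histones in spermatids, measured 0.826 kb and covered 0.0869% of a 950 kb domain on chromosome 1. The bitter taste receptor gene Tas2r119 and the hair keratin-associated gene Krtap11-1 each spanned about 1 kb, in domains of 600 and 250 kb. Capza3, whose product caps actin in sperm, had 1.28 kb in 425 kb, and Zdhhc25, a gene of the palmitoyltransferase family, 1.37 kb in 350 kb. Ctag2, a gene of the cancer and testis antigen family, had 1.37 kb in 1375 kb. The remaining 2 of the 8 shortest were gene models without a proper name, Gm32936 (0.180 kb in 1400 kb) and 3110040M04Rik (1.68 kb in 325 kb). Where a domain's only gene is such a model, whether it makes a protein in these cells is unknown here.

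Of 490 developmental transcription factor genes that could be located, 53 were lone genes, or 10.8% (8.36 to 13.9), against 2.7% of all protein-coding genes. They covered a median of 8.60% of their domains, which was less than the 33.4% over all lone genes, and 27 of the 53 covered under 10%. A stretch of more than 500 kb lay on one side of the gene in 22 of them, or 41.5%, against 128 of all 582 (22.0%). These genes were not all short. Their median length was 67.2 kb, while the whole list had 10.4 kb.

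Maf (gene ID 17132), a leucine zipper factor of lens and blood development, is a small gene in a wide domain. It spans 3.64 kb and had 578 kb of domain on one side and 743 kb on the other, in chr8:115125001-116450000. Another protein-coding gene reaches into the 578 kb side, and together they covered 17.5% of the domain. Pou3f1, a POU factor switched on in epiblast-like cells and later in glia, spans 3.01 kb and sat 14.3 kb from a boundary with 708 kb on the opposite side. Sox14, Id4 and Mycn, which act in neurons, in the inhibition of differentiation and in cell growth, had wider sides of 549, 636 and 511 kb. Sox14, Id4 and Mycn were named after their values were seen.

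Sall1, a zinc finger factor of kidney and limb development, spans 16.9 kb and had 227 and 756 kb of domain on its sides. Tbx3, a T-box factor of limb, heart and stem cells, spans 14.2 kb and lay 40.3 kb from a boundary, with 896 kb on its other side. Its neighbour across that boundary, chr5:119725001-119750000, is the related heart factor gene Tbx5, alone in a 350 kb domain. The pair Tafa1 and Tafa4, which encode small secreted proteins of the brain, was likewise split by a boundary, chr6:96825001-96850000. No other neighbouring lone genes shared a symbol stem.

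Several of these factors have long genes with wide flanks. Rorb, a nuclear receptor gene of the retina and cortex, spans 181 kb and had 1214 kb of domain on one side in its 1.45 Mb domain. The Hedgehog effector Gli3, the lung and brain factor Nfib and the T cell factor Tox spanned 266, 217 and 305 kb, with 814, 740 and 858 kb on the wider side. Tcf4, a helix-loop-helix factor of neurons, spans 345 kb, ended inside a boundary on chromosome 18 and had 843 kb on its other side. Sox5 and Sox6, partners in cartilage formation, spanned 954 and 570 kb in domains of 1250 and 1175 kb. The retinoic acid receptor gene Rarb and the zinc finger gene Tshz2 spanned 651 and 440 kb, and covered 66.8% and 41.7% of their domains. Only Rora, the receptor gene related to Rorb, covered its whole domain (575 kb) among the 53.

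Lone genes for secreted growth factors and their antagonists covered little of their domains. Of 127 located, 14 were lone genes (11.02%, 6.68 to 17.7), against 2.7% of all protein-coding genes. The 14 had a median of 3.17% of the domain covered. None of the 14 had an end within 10 kb of a boundary, which allows a share of up to 21.4%. The share was 18.1% over the 127 of the list, 33.3% over all lone genes and 18.3% over all protein-coding genes. It was 2.78% for lone genes of up to 10 kb and 28.1% for those of 10 to 100 kb, and the 14 had a median length of 28.1 kb. Their median distance from the nearest boundary was 98.02 kb, against 26.1 kb over all lone genes. Bmp2 (gene ID 12156), a bone morphogenetic protein gene of 10.7 kb, lay near the centre of chr2:132975001-134100000, with 577 and 537 kb on its sides. Bmp4, needed for mesoderm, spans 7.14 kb and had 559 and 359 kb. Fgf10, which induces limbs and lungs, spans 77.9 kb and had 315 and 557 kb.

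Others sat to one side. Gdf6, a gene of joint and eye formation, lay 19.4 kb from one edge and 988 kb from the other. Fgf9, a growth factor gene of testis and lung, had 95.7 and 1012 kb, and Bdnf, the neurotrophin gene, 325 and 148 kb. The vessel factor gene Angpt1 spans 252 kb and had 425 and 248 kb. The Wnt antagonist Dkk1 and the activin subunit gene Inhbb had 25.5 and 27.8 kb on the nearer side of 325 kb domains. Edn1 (endothelin), the Wnt antagonist Sfrp1, the BMP antagonist Chrdl1 and the oocyte factor Bmp15 occupied domains of 250 to 400 kb. The 2 with the largest covered share, Fgf12 (33.4%) and Chrdl1 (31.0%), have genes of 595 and 109 kb. Fgf12 is not secreted despite its family name, and its gene was the only one of the 14 to leave its domain.

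**Figure D2:**
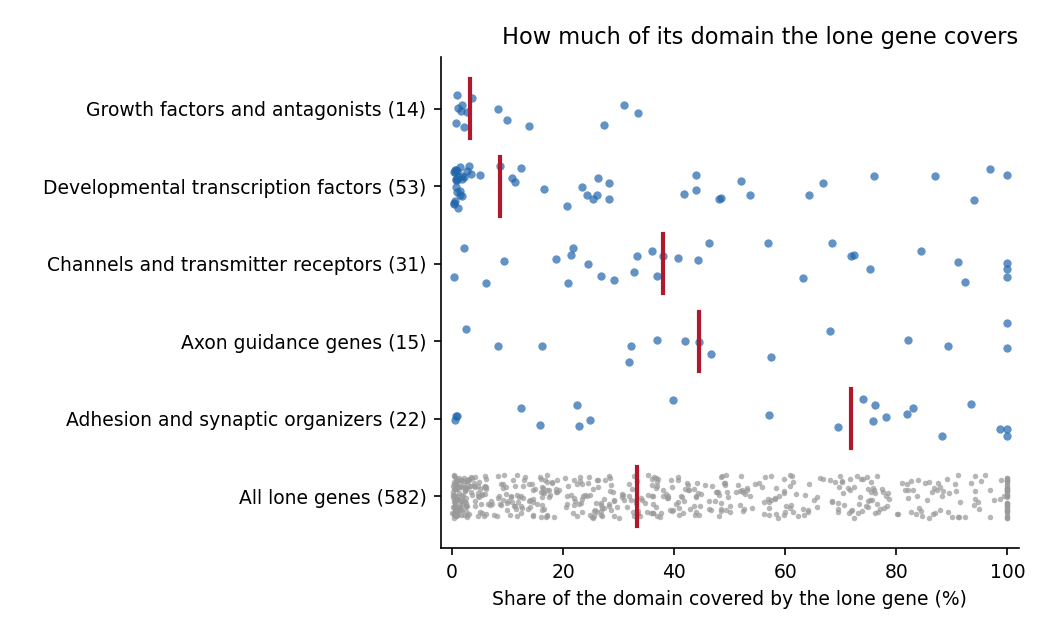
Share of the domain (%) covered by the lone gene, 1 point per gene and 1 line of points per group, with the vertical red bar at the group's median and all 582 lone genes at the bottom. Among the 5 groups drawn, medians run from 3.17% for growth factors to 71.8% for adhesion and synaptic organizer genes, with 33.4% over all lone genes, and points of every group but the growth factors span most of the axis.

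Genes of cell adhesion and of synapse formation lay at the opposite end. Of 124 located, 22 were lone genes (17.7%, 12.02 to 25.4), against 2.7% of all protein-coding genes. The 22 had a median length of 329 kb and a median covered share of 71.8%. The 124 had a median length of 151 kb, against 17.4 kb for all protein-coding genes. Of all genes longer than 500 kb, 28.2% were lone genes, and the part of length in the share was not tested. Of the 22 lone genes, 17 reached out of their domain, or 77.3%, against 39.7% of all lone genes. All lone genes had a median length of 157 kb, and the part of length in this contrast was not tested. Pcdh15 and the cadherin gene Cdh4 covered their domains whole, and the protocadherin gene Pcdh9 covered 98.8%. Negr1, a neuronal adhesion gene of 755 kb, had an end inside the left boundary of its 950 kb domain and left 209 kb free. Cntnap5c and Pcdh7 also had an end inside a boundary, with 482 and 617 kb of domain on the other side. Another protein-coding gene reaches into the Cntnap5c domain, whose longest gene-free stretch was 461 kb.

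A few genes of this list stood as small genes in wide domains. Slitrk6, which guides sensory innervation, spans 7.87 kb and sat 19.8 kb from the edge of a 950 kb domain, and Cbln4, a synaptic organizer gene of 7.13 kb, had 1136 kb on one side. The cadherin genes Cdh11 and Cdh20 and the synaptic gene Lrfn5 crossed or touched one boundary, and had 1007, 968 and 848 kb of domain on the other side. Sdk2, which matches partner neurons in the retina, crossed a boundary in the same way with 583 kb left.

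Axon guidance genes had the highest share of lone genes among the lists, with 15 of 74 (20.3%, 12.7 to 30.8). This interval overlaps those of adhesion genes (12.02 to 25.4) and of pluripotency genes (7.09 to 32.6). The 74 had a median length of 49.8 kb, against 17.4 kb for all protein-coding genes, of which 2.7% were lone genes. Of the 15, 10 had an end inside a boundary or within 10 kb (66.7%). This share was 33.8% over the 74 of the list, 33.3% over all lone genes and 18.3% over all protein-coding genes. It was 43.0% for lone genes of 100 to 500 kb, and the 15 had a median length of 326 kb. Also 10 of the 15 left their domain, against 39.7% of all lone genes. Slit2 and Slit3, which encode ligands that repel growing axons, were lone genes. Slit3, of 587 kb, covered 68.1% of an 850 kb domain and Slit2, of 326 kb, covered 82.1% of a 375 kb domain, each with 1 end inside a boundary. Their receptor gene Robo1, of 1020 kb, had its midpoint in a 375 kb domain and crossed 3 whole boundaries. The netrin-related genes Ntng1 and Ntn4 covered 57.5% and 46.6% of their domains, and the netrin receptor Neo1 covered 31.9%.

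Ephrin receptors gave 4 of the 15. Epha6, of 969 kb, covered its 875 kb domain and reached 33.6 and 60.9 kb past its edges. Epha3 and Ephb1 spanned 321 and 433 kb and had 644 and 722 kb of domain on one side. Another protein-coding gene reaches into each of these domains, whose longest gene-free stretches were 614 and 670 kb. Ephb3, a receptor gene of the gut and brain, spans only 18.7 kb, 4.62 kb from the boundary of a 0.225 Mb domain. Among semaphorins, Sema5a covered 89.3% of 500 kb and Sema3a 44.5% of 1075 kb. The neuropilins, receptors for semaphorins and VEGF, had ends at boundaries in both cases, Nrp1 inside one and Nrp2 at 3.32 kb. Rgma, the repulsive guidance gene of 44.4 kb, had its midpoint at 99.8% of the length of its 1000 kb domain, which left 976 kb on one side.

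**Figure D3:**
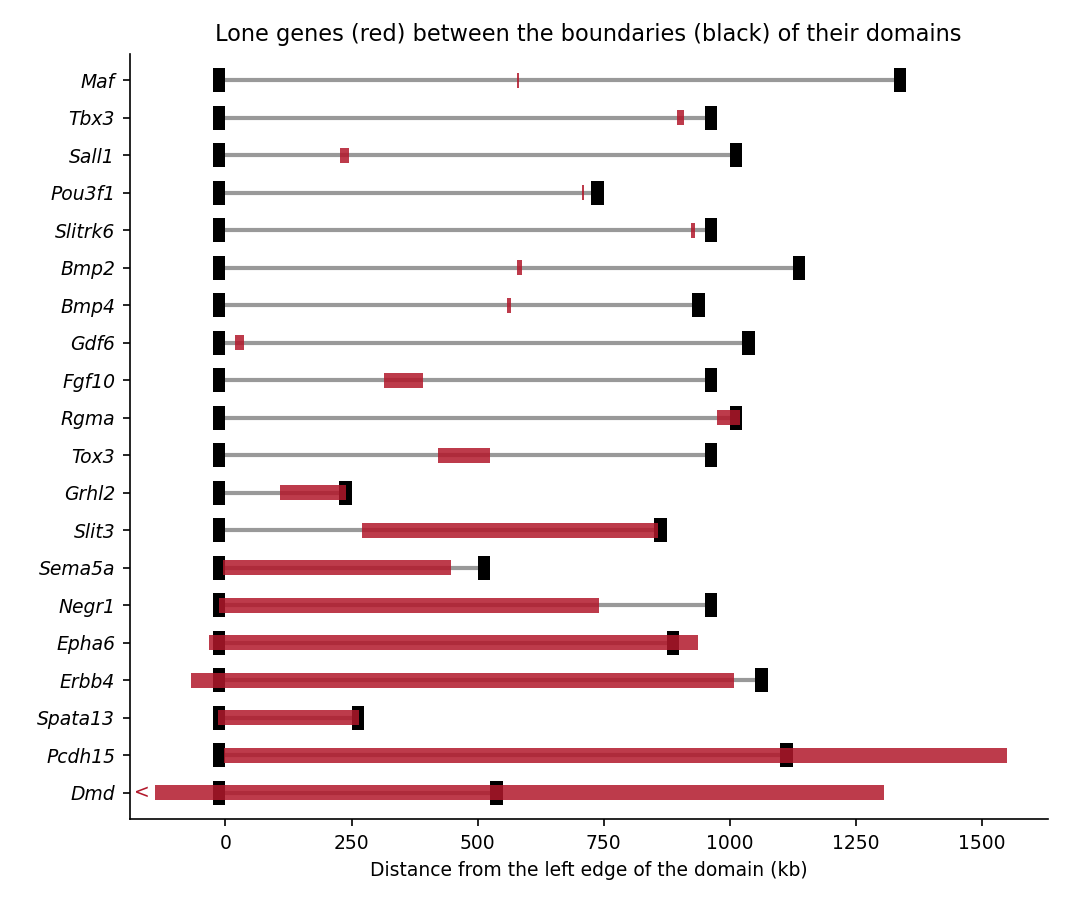
The map shows 20 lone genes (red) drawn to scale in their domains, with distance from the domain's left edge in kb and the 25 kb boundaries as black blocks, and an arrow where a gene runs off the drawing. Small regulators and ligands from Maf to Gdf6 cover little of the domain, and the long genes from Slit3 to Dmd fill most of it or run past its edges.

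Of 268 ion channel and neurotransmitter receptor genes located, 31 were lone genes (11.6%, 8.27 to 15.95), against 2.7% of all protein-coding genes. The 268 had a median length of 42.1 kb, against 17.4 kb for all protein-coding genes. The 31 were intermediate, with a median of 38.1% of the domain covered. A midpoint in the outermost 10% on either side was found in 3 of 31 (9.68%), against 117 of all 582 lone genes (20.1%). The glutamate receptor genes Gria1, Grin2a and Grm3 had 862, 668 and 900 kb free on one side. The potassium channel genes Kcnn2 and Kcnj3 lay at least 394 and 337 kb away from both edges. Chrm3, a muscarinic receptor gene of 486 kb, had an end 0.486 kb from a boundary, and Kcnq5 crossed one and ended 1.60 kb from its far edge. The receptor genes Adra2a (3.72 kb, an adrenergic receptor) and Htr7 (99.7 kb, a serotonin receptor) sat 20.3 and 16.9 kb from a boundary with 1001 and 958 kb on the other side.

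The protease family ADAM and ADAMTS gave 7 of 58 (12.1%, 5.97 to 22.9), all of them of the ADAMTS branch, which cuts extracellular matrix. The 58 had a median length of 36.8 kb, against 17.4 kb for all protein-coding genes, of which 2.7% were lone genes. Adamts5, the aggrecanase gene, spans 43.0 kb and had 1349 kb of its 1.45 Mb domain on one side, whereas Adamts12 covered 87.5% of 325 kb. Adamts15 ended 2.55 kb from a boundary. Numbered zinc finger genes, which mostly stand in clusters, gave 8 of 367 (2.18%, 1.11 to 4.24), and predicted or unnamed genes 19 of 1634 (1.16%, 0.746 to 1.81). The predicted gene Gm826 had the longest stretch without a protein-coding gene of any member, 1411 kb.

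Some lists had no lone gene. Of 456 genes of core cell machinery, such as ribosomal, proteasome and respiratory chain genes, 0 were lone genes, which allows a share of up to 0.658%. Of 1459 olfactory and vomeronasal receptor genes, which stand in tandem arrays, 0 were lone (up to 0.206%). These lists had median gene lengths of 7.35 and 0.951 kb, against 17.4 kb for all protein-coding genes. Of all protein-coding genes, 2.7% were lone genes, and of the 7675 of up to 10 kb, 72 were. The part of gene length in these counts was not tested. Of the 22 genes for cohesin, CTCF and the targets of A485, 0 were lone as well, but this list is small and allows up to 13.6%. Among them Wapl, the gene for a factor that releases cohesin, was alone in a domain of 175 kb, below the limit of length.

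Among pluripotency genes, 5 of 31 were lone genes (16.1%, 7.09 to 32.6), against 2.7% of all protein-coding genes. The 5 included Sall1, Tbx3, the nuclear receptor gene Nr5a2 and the zinc finger gene Zfp281. Zfp281 and Nr5a2 were neighbours on chromosome 1, in domains of 0.225 and 0.45 Mb. Zfp281 (5.49 kb) lay near the middle of its 0.225 Mb domain, with 99.9 and 120 kb on its sides. Sox2 was alone too, but in a domain of 175 kb, below the limit of length, and Klf4, Tfcp2l1 and Esrrb each shared a domain with 1 other gene. Of 22 genes that mark epiblast-like or primed cells, Pou3f1 and the epithelial factor Grhl2 were lone genes. Grhl2 spans 131 kb, covered 52.1% of a 0.225 Mb domain and ended inside its boundary.

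Lone genes ended at a boundary more often than genes of fuller domains. An end lay inside a boundary or within 10 kb in 194 of 582 lone genes (33.3%, 29.6 to 37.3), against 19.03% of genes of mid-length domains with 2 to 11 genes (18.2 to 19.9), 6.78% of those with 12 or more (6.25 to 7.36) and 18.3% of all protein-coding genes. In 117 cases the end lay inside the 25 kb boundary itself, which was not counted for other genes. The shares varied with gene length and are therefore also given by length class. For genes of 100 to 500 kb they were 43.0% among lone genes (37.6 to 48.6), 24.9% in domains with 2 to 11 genes (22.7 to 27.3) and 16.3% in those with 12 or more (12.1 to 21.7). For genes of 10 to 100 kb they were 28.1% (21.3 to 36.0), 19.9% (18.8 to 21.1) and 8.11% (7.30 to 9.002). These intervals do not overlap between lone genes and the other 2 classes, but for 10 to 100 kb they nearly meet (21.3 and 21.1). They cover counting error only. Genes that share a domain or a boundary are not independent, and no test was run.

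The order differed for the shortest genes. Of 72 lone genes of up to 10 kb, 2 ended near a boundary (2.78%, 0.765 to 9.57), against 11.7% (10.2 to 13.3) in domains with 2 to 11 genes and 4.86% (4.22 to 5.58) in those with 12 or more. One of the 2 was Sox9, a factor of cartilage and testis that lay 7.21 kb from a boundary with 362 kb of domain on its other side. For genes over 500 kb the share was 32.8% among 64 lone genes (22.6 to 45.0) and 23.1% among 78 genes of domains with 2 to 11 (15.1 to 33.6), and these intervals overlap. The number of genes per domain moves with these shares by definition of the classes, and its part in them was not tested. The rule also bears on the shortest genes, because a small gene whose midpoint lies inside a boundary belongs to no domain.

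**Figure D4:**
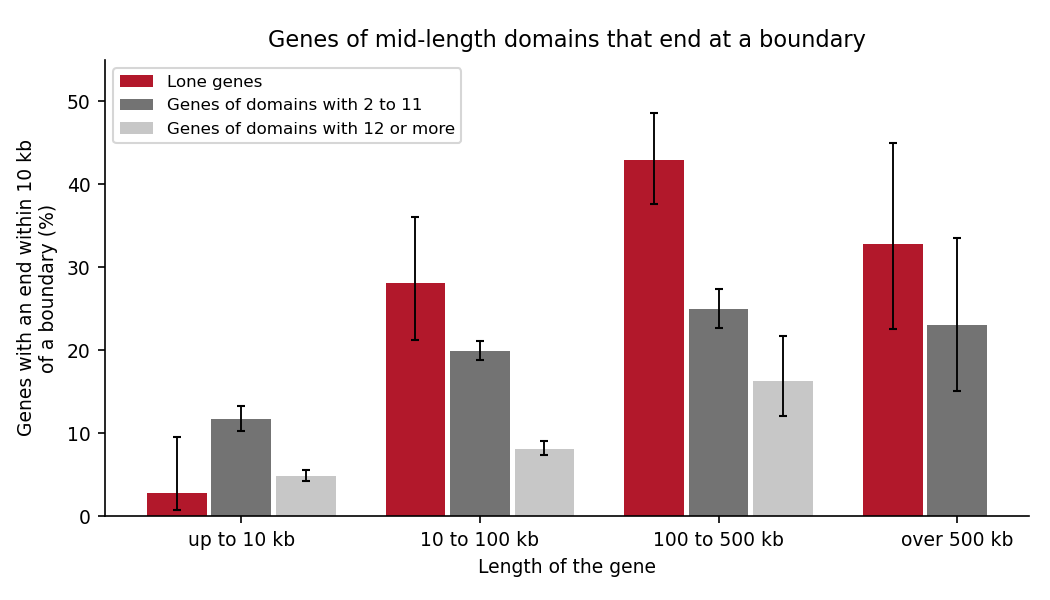
Share of genes (%) with an end inside a boundary or within 10 kb of one, by gene length, for lone genes (red), genes of mid-length domains with 2 to 11 genes (dark grey) and with 12 or more (light grey), with 95% Wilson intervals. Lone genes of 100 to 500 kb stand at 43.0%, above 24.9% and 16.3%, and those of up to 10 kb at 2.78%, and classes of fewer than 10 genes are not drawn.

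Many lone genes did not stay within their domain. In 231 of 582 (39.7%, 35.8 to 43.7) the gene body ran past an edge, and 128 (22.0%) crossed at least 1 whole boundary. Of these, 109 crossed 1 boundary, 17 crossed 2, and Pde4d and Robo1 crossed 3. Those that crossed 2 and covered their domain include Dmd, Dlg2, Dpp10, Epha6, the retinoid-related receptor gene Rora, the calcium-permeable channel gene Trpm3, the channel partner gene Kcnip4 and Ccser1. The synaptic release gene Rims1 covered its 250 kb domain and crossed 1. In such genes a boundary called in stem cells lies within the transcribed unit, whether or not the gene is read there, which these data do not show. The shares that left a domain or crossed a boundary were not counted for genes of other domains. Lone genes had a median length of 157 kb, against 17.4 kb for all protein-coding genes, and the part of length in these shares was not tested.

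In 4 of the 34 wholly covered domains, named after their values were seen, both gene ends fell inside the flanking boundaries, so that gene and domain had nearly the same limits. These were Spata13 (279 kb in a 250 kb domain), Cdh4 (457 kb in 425 kb), Slc44a5 and the myosin gene Myo5b. Spata13 reached 14.8 kb into one boundary and 14.6 kb into the other in chr14:60500001-60750000. Shroom3, a gene of neural tube closure, came close to this without touching, with 8.44 and 9.24 kb left in a 300 kb domain. The orphan receptor gene Gpr158 and Pdzrn3, a gene of the nerve-muscle synapse, were also centred, with 92.6 and 94.5 kb, and 250 and 247 kb, on their sides. Tox3, an HMG-box factor gene, had 422 and 426 kb.

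Apart from such cases lone genes were spread along the domain. With the domain cut into 3 equal parts, 202 of 582 midpoints (34.7%, 31.0 to 38.7) lay in the middle part, against 27.7% of genes in domains with 2 to 11 (26.7 to 28.6) and 32.2% with 12 or more (31.2 to 33.2). The share differed with gene length. It was 41.7% among lone genes of 100 to 500 kb, against 35.0% and 35.7% of genes of that length in the other 2 classes, and 20.9% among lone genes of 10 to 100 kb, against 25.8% and 31.8%. Only 98 lone genes (16.8%) had both ends more than 100 kb from the flanking boundaries. The longest stretch of a domain without any protein-coding gene had a median of 229 kb and quartiles of 94.2 and 432 kb.

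A domain with 1 midpoint can still hold part of another gene. In 392 of 582 domains (67.4%) no other protein-coding gene overlapped the domain, in 165 (28.4%) 1 further gene reached in, and in 25 (4.30%) 2 or more did. An example is Lrtm1, a leucine-rich repeat gene of 15.4 kb, whose whole body lies inside the calcium channel subunit gene Cacna2d3, which has its own midpoint in the next domain.

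The boundaries around lone genes were poorer in gene ends than those around fuller domains. Of the 1067 boundaries that flank the 582 domains, 532 (49.9%, 46.9 to 52.9) contained a protein-coding gene's end or had one within 10 kb, against 67.6% (65.8 to 69.4) of those that flank domains with 2 to 11 genes, 87.4% (84.6 to 89.7) with 12 or more, and 64.3% of all 3515 boundaries. Around domains without a gene the share was 35.0% (30.0 to 40.4). Boundaries are shared between neighbouring domains, so these classes overlap. The gene count that defines the classes also bears on how many gene ends can lie at their boundaries. Its part in these shares was not tested. Counted by edge, 592 of 1164 edges (50.9%) had no gene end, 370 (31.8%) had an end of another gene only, 122 (10.5%) of the lone gene only and 80 (6.87%) of both.

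Single-gene domains stood beside each other at nearly the same share as they stood beside domains with 2 to 11 genes. Among the neighbours of the 582, 16.8% were themselves members (14.8 to 19.1), close to the 16.7% that members make up of all 3495 domains. The share was 17.1% for neighbours of domains with 2 to 11 genes (15.9 to 18.4) and 7.62% with 12 or more (5.94 to 9.73). It was highest, at 26.4%, for neighbours of domains with 0 genes (21.9 to 31.4). The neighbours held a median of 2, 3, 7 and 2 protein-coding genes in these classes, in the order given. Of the members, 404 had no member as neighbour on either side, 68 pairs stood together, and 13 runs held 3 or more.

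The longest run was of 5 domains over 2175 kb, chr15:26000001-28175000. It held Marchf11, a ubiquitin ligase gene, Fbxl7, an F-box gene, Ank, which encodes a pyrophosphate transporter, Otulinl and the model Gm29975, which covered 16.1, 40.9, 39.5, 10.6 and 9.12% of their domains. A run of 4 over 2075 kb, chr9:8225001-10300000, held the cation channel gene Trpc6, the progesterone receptor gene Pgr, Arhgap42 and Cntn5. Their genes covered 29.1, 23.2, 61.2 and 74.0%.

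Among the runs of 3, Cps1, Erbb4 and Ikzf2 on chromosome 1 spanned 2700 kb. Cps1, the urea cycle enzyme gene of 109 kb, covered 10.9% of its domain, whereas Erbb4, a neuregulin receptor gene of 1077 kb, covered 96.1%, and the lymphocyte factor gene Ikzf2 covered 26.02%. Kcnq5, Rims1 and Ppp1r14bl stood in a row on the same chromosome, as did Cpa6, Prex2 and A830018L16Rik. Malrd1, Plxdc2 and the muscle gene Nebl formed the longest run of 3, at 2750 kb on chromosome 2. The synaptic genes Erc2 and Cacna2d3 flanked Lrtm1 on chromosome 14, and St8sia2, Slco3a1 and the synaptic vesicle gene Sv2b stood together on chromosome 7. The others were Gm11780, Bpnt2 and Fam110b, and Slc24a2, Mllt3 and Focad, on chromosome 4, Tbc1d22a, Tafa5 and Zdhhc25 on chromosome 15, Camk4, Nrep and Epb41l4a on chromosome 18, and Tmem164, Ammecr1 and Chrdl1 on chromosome X.

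**Figure D5:**
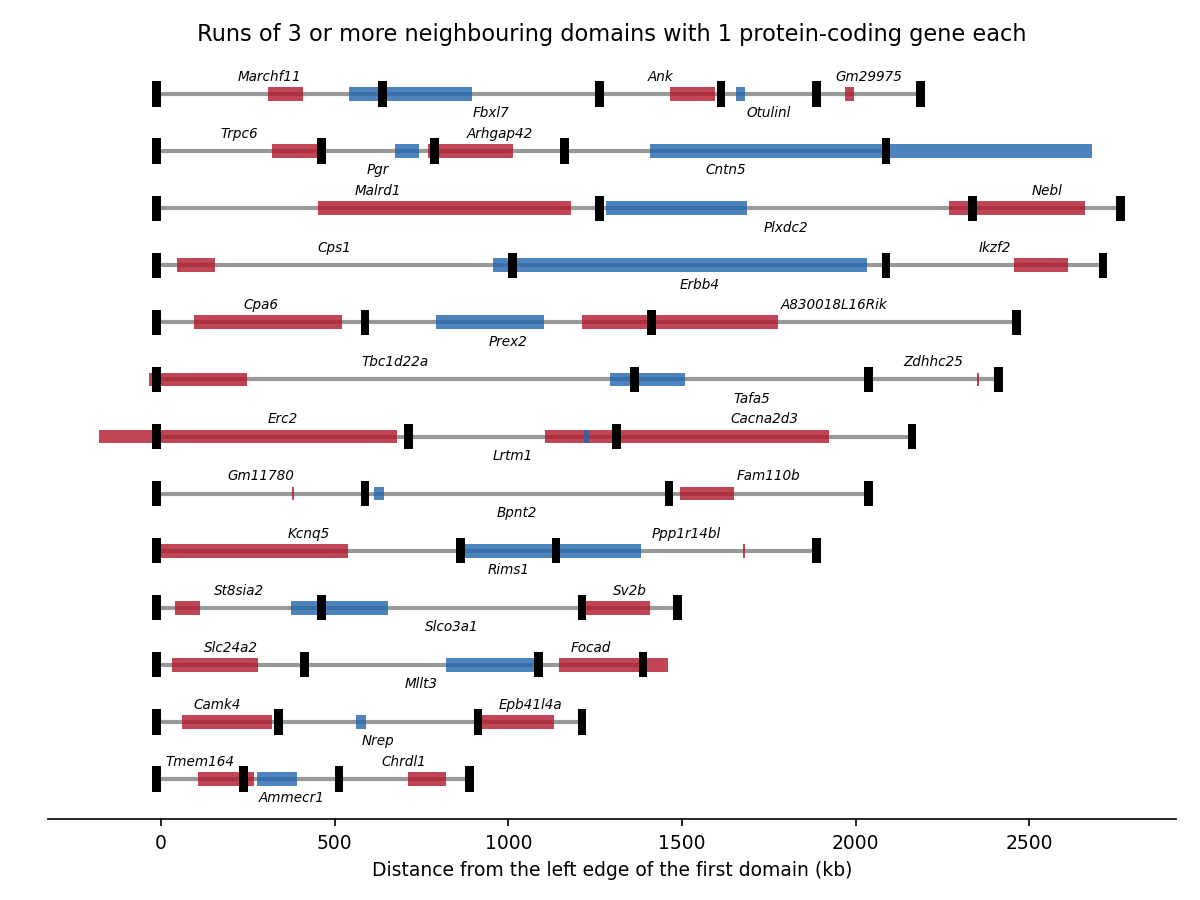
The 13 runs of 3 or more neighbouring single-gene domains drawn to scale, 1 run per line, with distance in kb from the left edge of its first domain, boundaries in black and lone genes in alternating red and blue. The run of 5 from Marchf11 to Gm29975 stands on top, and genes such as Cntn5, Erbb4 and Rims1 run across boundaries while Ppp1r14bl and Zdhhc25 are barely visible at this scale.

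Single-gene domains were not empty of other annotated genes. They held 2898 non-coding genes and pseudogenes, with a median of 4 per domain, and 34 domains (5.84%) had none. Such domains made up 1.72% of those with 2 to 11 protein-coding genes, 0% with 12 or more and 4.85% with 0. Per Mb there were 8.75 non-coding genes and pseudogenes, against 11.5, 16.5 and 8.04 in these classes. Long non-coding RNA genes reached 4.91 per Mb, against 6.19, 6.70 and 3.56, and pseudogenes 2.52 per Mb, against 3.75, 6.28 and 3.10. The 34 without any include the domains of the progesterone receptor gene Pgr, the oestrogen receptor gene Esr1, Erg, Sema5a and Bmp15. Pgr, Esr1 and Erg were picked from these after their values were seen.

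The domain of Sfmbt2, a Polycomb-related gene, held most, with 78 non-coding genes in 750 kb, and 72 of them were miRNA genes, all inside the gene. The domain of Krba1 had 49 in 275 kb, of which 43 were tRNA genes. Npvf, a neuropeptide gene of 3.77 kb, shared 575 kb with 16 long non-coding RNA genes and 6 pseudogenes. The model Gm4791 and Mn1, a gene of skull formation and leukaemia, each had 17.

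Without Sfmbt2, 74 miRNA genes lay in single-gene domains, 30 of them inside the lone gene. Of all 146, 63 had a sequence in the RefSeq table of GRCm38.p6. The mature forms below, picked after their sequences were seen, come from miRNA genes that share a seed, bases 2 to 8, with another in these domains. The seed is in capitals. miR-218 lies inside both Slit2 and Slit3, at chr5:48223966-48223986 and chr11:35616840-35616860 on the plus strands, with the same mature sequence.
mmu-miR-218-5p: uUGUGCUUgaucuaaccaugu
A pair of related clusters, of miR-100, let-7a-2 and miR-125b-1 and of miR-99a, let-7c-1 and miR-125b-2, stood in the domains of Gm40514 (725 kb, chromosome 9) and of the deubiquitinase gene Usp25 (1225 kb, chromosome 16), both outside the lone gene. In the Gm40514 domain the only protein-coding gene is thus a model of 4.91 kb.
mmu-miR-100-5p: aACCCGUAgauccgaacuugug
mmu-miR-99a-5p: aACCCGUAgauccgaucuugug
mmu-miR-125b-5p: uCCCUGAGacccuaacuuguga
Another 3 groups were neighbours of a single domain, miR-29a and miR-29b-1 with Mkln1, miR-30a and miR-30c-2 with Ppp1r14bl, and miR-221 and miR-222 with Tex13c3.
mmu-miR-29a-3p: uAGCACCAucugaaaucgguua
mmu-miR-29b-3p: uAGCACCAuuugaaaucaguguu
mmu-miR-30a-5p: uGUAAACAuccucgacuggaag
mmu-miR-30c-5p: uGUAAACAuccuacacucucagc
mmu-miR-221-3p: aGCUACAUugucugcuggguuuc
mmu-miR-222-3p: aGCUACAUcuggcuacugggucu
The remaining 2 shared seeds found this way join miRNA genes of different domains. They pair miR-218-1-3p inside Slit2 with miR-496b inside Gnaq, and let-7c-1 in the Usp25 domain with miR-1961 inside Shroom3. The groups may be incomplete. For example, let-7a-2 in the Gm40514 domain and miR-30b and miR-30d in the domain of Zfat are in none of them.
Of the lone genes named here, Ppp1r14bl and Tex13c3 span under 2 kb, with 1.78 kb in 725 kb and 1.90 kb in 1.475 Mb. Another protein-coding gene reaches into the Ppp1r14bl domain, and together they covered 32.1% of it. Levels of these miRNAs were not measured.

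Single-gene domains lay on every chromosome with boundaries. Their share of all domains was highest on chromosome 18 (33 of 135, 24.4%, 17.97 to 32.3), followed by chromosomes 15 (21.8%) and 16 (21.2%), and lowest on chromosomes 17 (11 of 122, 9.02%, 5.11 to 15.4) and 11 (9.83%). Chromosome 18 had 5.64 protein-coding genes per Mb, against 11.02 and 13.1 on chromosomes 17 and 11. Other chromosomes did not follow that order. Chromosome 12 had 5.65 genes per Mb and the third lowest share (18 of 138), chromosome X had 5.64 and a share of 16.1%, and chromosome 7 had 13.9 and a share of 15.5%.

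At the limits of the rule, 40 domains with 1 gene measured exactly 0.225 Mb, among them those of Stk17b, Zfp281 and the activin receptor gene Acvr1, and 37 measured 0.2 Mb, just too short, among them those of Phf3, Mgat4a and Bend7. At the upper end, the domain of Tex13c3 measured 1.475 Mb, and that of the synaptic gene Neto1, at 1.5 Mb, was just too long.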

How the data were processed

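The submitters' processing notes name BWA 0.7.17, Juicer 1.22.01 and mm10, which the authors used to make the deposited files. The values used are intervals: the authors deposited a list of 3515 boundaries of 25 kb from the DMSO-treated stem cell libraries, each with its place in the genome but without a score. For the boundary caller, its name and settings were not given in the sources used here. The other 4 groups were not analysed here, and in 6 libraries of the dTAG and A485 stem cell groups the growth text speaks of epiblast-like cells.

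Genes came from RefSeq GRCm38.p6. On unplaced, alternate or patch scaffolds, 345 genes (110 protein-coding) were left out, which kept 49209 (21521 protein-coding). Single-gene domains measured 225 to 1475 kb. A gene counted as near where either end was in the boundary or at most 10 kb off. Distances run from the gene end to the boundary interval. Non-coding genes were placed by midpoint. Shares have 95% Wilson intervals, and 0 counts a limit of 3 counts. Domains of 1 list are no replicates, so no test was run. The computation was tested on simulated boundaries.

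The domains and gene lists were chosen with earlier results of these data known. Genes were named by rule: the 8 longest and 8 shortest lone genes, the 8 that cover most, lone genes of each list (all of up to 15, otherwise the 12 in the longest domains), all genes of runs of 3 or more, the 5 most central, the 5 longest that leave their domain, the 5 domains richest in non-coding genes, and examples at the limits of length. Some genes that the rule names are not reported here. Tbx5, Tafa1, Tafa4, Cdh4, Pcdh9, Rora, Trpm3 and Sox9 were also picked after their values were seen. Promoter windows were known for 432 of 582 lone genes (74.2%), under the 80% needed, so no share of promoter types is given. Promoters on chromosome 18 were not considered for printing. Alternatives changed how genes are placed, the limits of length, the gene models, the domain edges and the window. Tools were matplotlib 3.10.9, scipy 1.17.1, pandas 2.3.3 and numpy 2.4.6 under Python 3.11.15.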

Additional observations from a re-analysis of the deposited data

How the results depend on the processing

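Of 23 alternatives over 7 results, 17 left the value within the interval of the reported one or the count within 1.5 times. The number of single-gene domains ranged from 463 to 620, against 582. The other 6 moved a value. When a gene counted for every domain its body overlaps, the median lone gene measured 206 kb over 463 domains, against 157 kb. The share of lone genes at a boundary was 20.1% with an end inside the boundary only, 67.4% within 50 kb, and 2.06% by midpoint within 10 kb, against 33.3%. The median number of non-coding genes was 3 without pseudogenes, against 4, and with any domain length 13.9% of developmental transcription factors were lone genes, against 10.8%. Alternatives for promoters rich in CG and for gene starts in place of midpoints were not run, because starts were known for too few lone genes. No paired analysis was possible because the list has no samples. The depth of contacts is unknown, so a missed boundary, which would merge domains, or a false one, which would split them, cannot be recognised.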
